A study of Mus musculus with 8 samples.

Results

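The Abhd genes encode proteins with an alpha/beta hydrolase domain, and 10 of them are described here out of 22180 genes that had a probe set of their own on the array. They are Abhd15, the gene deleted in this study, and Abhd2, Abhd3, Abhd4, Abhd6, Abhd8, Abhd10, Abhd11, Abhd12 and Abhd13. They were taken by name. For Abhd15 every probe set that names it is shown, and each other gene is represented by the probe set of highest mean among those that name it alone. Expression was measured in brown adipose tissue of male mice on the C57BL/6J background, with 1 mouse per Affymetrix Mouse Gene 2.0 ST array. The groups were 3 wild-type mice (WT) and 5 mice labelled Abhd15 KO, all 14 weeks old, kept on normal chow, fasted overnight and given chow again for 1 h before harvest. The 5 are called the KO-labelled arrays below, because Abhd15 itself was not lower in them. Which part of Abhd15 was deleted, how, and whether litters were shared was not stated in the labels, so the p-values measure only the spread between these mice.

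Alpha/beta hydrolases share a fold in which a serine, a histidine and an acidic residue usually form the active site, and many of them cut ester or thioester bonds of lipids. In the Abhd family such reactions include the breakdown of monoacylglycerols, among them the endocannabinoid 2-arachidonoylglycerol, the cutting of lysophospholipids and the removal of fatty acids from proteins. ABHD15 is found in adipocytes and is known to associate with phosphodiesterase 3B, the enzyme through which insulin lowers cyclic AMP and restrains lipolysis in fat cells.

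The 250 bases before the annotated start of 4 members are shown first, as RefSeq gives them for GRCm38.p6, because Abhd15 is the targeted gene and because Abhd2, Abhd10 and Abhd13 were all lowest in the same array, WT replicate 2. Capitals mark matches, on either strand, to the GC box GGGCGG, the CCAAT box CCAAT or the E-box CACGTG. In Abhd10 a GC box on the other strand and a CCAAT box overlap.
Abhd15, chr11:77514867-77515116, plus strand: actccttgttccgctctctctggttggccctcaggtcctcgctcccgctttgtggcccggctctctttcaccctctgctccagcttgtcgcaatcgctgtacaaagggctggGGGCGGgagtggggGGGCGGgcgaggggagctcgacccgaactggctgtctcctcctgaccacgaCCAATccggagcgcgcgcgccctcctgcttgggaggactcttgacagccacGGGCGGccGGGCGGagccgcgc
Abhd2, chr7:79273016-79273265, plus strand: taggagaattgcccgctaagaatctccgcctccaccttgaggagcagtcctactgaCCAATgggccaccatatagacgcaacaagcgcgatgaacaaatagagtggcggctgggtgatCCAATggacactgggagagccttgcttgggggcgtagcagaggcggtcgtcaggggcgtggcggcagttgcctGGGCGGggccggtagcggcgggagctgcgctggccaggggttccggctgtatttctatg
Abhd10, chr16:45742956-45743205, minus strand: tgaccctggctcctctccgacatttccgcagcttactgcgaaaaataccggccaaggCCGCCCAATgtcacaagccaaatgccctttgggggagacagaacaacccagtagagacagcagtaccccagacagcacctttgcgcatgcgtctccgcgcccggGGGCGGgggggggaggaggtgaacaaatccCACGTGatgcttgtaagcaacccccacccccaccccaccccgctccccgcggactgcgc
Abhd13, chr8:9977467-9977716, plus strand: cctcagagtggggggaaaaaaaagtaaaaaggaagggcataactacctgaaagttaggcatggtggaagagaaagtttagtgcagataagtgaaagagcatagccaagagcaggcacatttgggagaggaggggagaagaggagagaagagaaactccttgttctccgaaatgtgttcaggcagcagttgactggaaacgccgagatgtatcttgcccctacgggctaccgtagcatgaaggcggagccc

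The window of Abhd15 held 4 GC boxes and 1 CCAAT box, and its GC content was 68.8%, against a median of 52% over 27025 genes. The Abhd2 window held 1 GC box and 2 CCAAT boxes, and that of Abhd10 held 2 GC boxes, 1 CCAAT box and 1 E-box. None of these letters was in the Abhd13 window, whose GC content was 49.6%. Among the 8 members with a window used here, the GC box was in 5 and the CCAAT box in 5, where 32.9% and 34.5% of all genes held them. The E-box was in 1 member and in 6.05% of genes. The TATA box TATAAA (13% of genes), the cyclic AMP response element TGACGTCA (1.62%), the ETS site CCGGAAG (7.05%) and the estrogen-related receptor half-site TCAAGGTCA (0.366%) were in none of the 8. A match is only a run of letters, and the 3 members lowest in WT replicate 2 had no motif of this set in common.

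No member passed the test between the groups. With limma and Benjamini-Hochberg adjustment over all 13229 genes tested, 0 of 10 members reached an adjusted p of 0.05, and 0 of 13229 genes did (0%). The adjusted p was 0.9997 for each of the 10. At an unadjusted p of 0.05 the count was also 0 of 10, where 4.01% of all tested genes lay below it. In the exact permutation test of single values, 2 of 10 members, Abhd10 and Abhd13, had an unadjusted p under 0.05 (both 0.0357). That test was not run over all tested genes, so the count has no share to be set against. Without WT replicate 2 the differences of Abhd10 and Abhd13 were 0.11 and 0.08. The groups overlapped in all 10 members, and 2.77% of tested genes had groups without overlap. By sign, 6 members were higher and 4 lower in the KO-labelled arrays, with a median difference of 0.07 log2, and 51.7% of tested genes were higher, with a median of 0.01.

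**Figure D1:**
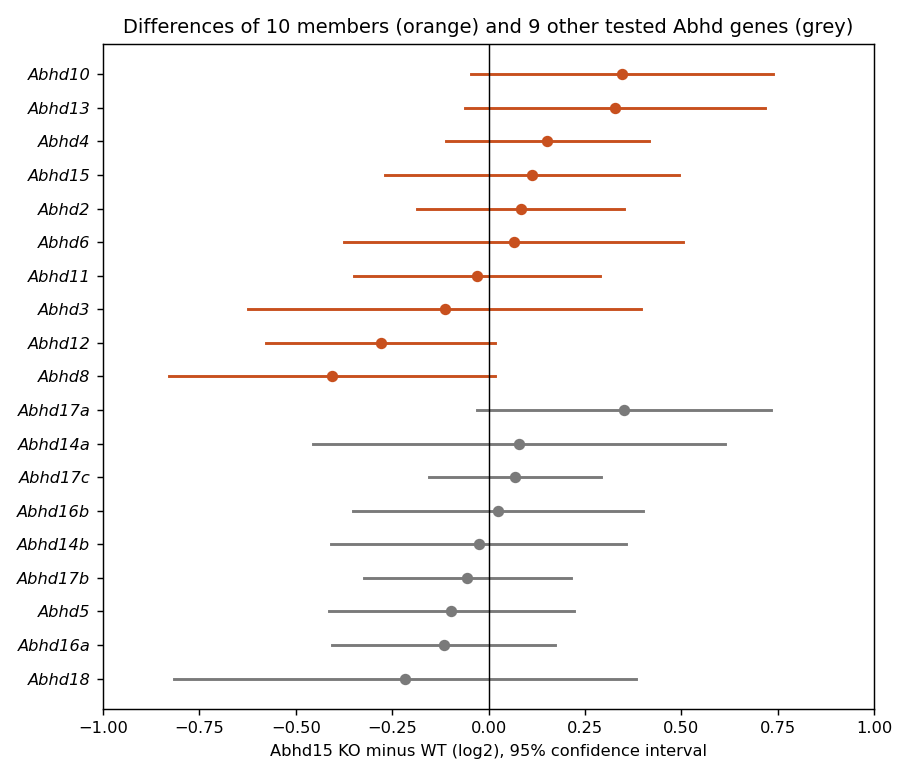
Difference between the KO-labelled arrays and WT (log2, horizontal axis) with its 95% confidence interval from limma, for the 10 members in orange and 9 other tested Abhd genes in grey. Every interval includes 0, and the members run from −0.41 in Abhd8 to 0.35 in Abhd10.

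The intervals are those of single genes, not adjusted over the genes tested, so they are not detection limits of the adjusted test. The half-width of the intervals ran from 0.26 log2 in Abhd4 to 0.51 in Abhd3, against a median of 0.36 over all tested genes. In all 10 members the interval of the main fit left out a 2-fold difference in either direction. In 6 of them it also left out a 1.5-fold difference, and in Abhd3, Abhd8, Abhd10 and Abhd13 it did not. Without WT replicate 2 the interval of Abhd8 (−1.01 to −0.14) reached past a 2-fold loss.

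No loss of signal was seen at Abhd15. The brightest of its probe sets (17253297) gave 5.87, 5.94 and 6.23 log2 in WT replicates 1 to 3 and 6.32, 6.14, 5.68, 6.35 and 6.13 in KO-labelled replicates 1 to 5. The lowest and the highest of the 8 values were both in KO-labelled arrays, replicates 3 and 4. The difference was 0.11 (95% confidence interval −0.27 to 0.49, exact two-sided permutation p = 0.518), which in folds is 1.08 with an interval of 0.83 to 1.41. It was 0.22 without KO-labelled replicate 3 and 0.04 without WT replicate 1. KO-labelled replicate 3 was also the array of lowest mean over the brown adipocyte markers, at 9.15 against 9.53 to 9.94 in the other 7. Of these markers, Dio2 read 4.47 there and 5.57 to 8.32 elsewhere, and Elovl3 9.44 and 10.12 to 10.67. Ucp1, Cidea, Prdm16 and Ebf2 were not lowest in that array. Probes that lie outside a deletion cannot check it, so the directions below rest on the labels.

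The other 2 probe sets that name Abhd15 differ from the first in where their numbers lie. Probe-set numbers on this array run by chromosome and strand. Of 16443 probe sets with 1 gene symbol and at least 8 of their 10 nearest named neighbours on 1 strand, 96.6% belong to a gene of that strand in RefSeq. Abhd15 lies on the plus strand, and all 10 neighbours of 17253297 are plus-strand genes of chromosome 11. Of the 10 neighbours of 17266259, which names Abhd15 alone, 9 are minus-strand genes, and of those of 17266245, which names Abhd15 and Trp53i13, 8 are. Trp53i13 is a minus-strand gene whose RefSeq span overlaps that of Abhd15. Which strand the probes read is not stated in the labels.

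Probe set 17266259 read 3.21, 2.98 and 4.36 in WT and 3.72, 3.73, 4.30, 3.66 and 3.65 in the KO-labelled arrays (difference 0.29, exact permutation p = 0.518). Its 2 highest values were in WT replicate 3 and in KO-labelled replicate 3, the array lowest in 17253297. Its lowest value, 2.98 in WT replicate 2, was near 2.88, the limit of dim values defined below. Probe set 17266245 read 4.54, 4.72 and 4.44 in WT and 4.32, 4.59, 4.55, 4.18 and 4.46 in the KO-labelled arrays (difference −0.15, exact permutation p = 0.268). It ran against 17253297 across the 8 mice, with Pearson r = −0.707 (exact permutation p = 0.0492, adjusted over 4 such relations 0.197) and Spearman rho = −0.738 (exact permutation p = 0.0458). Without the 2 arrays farthest from the median, r was −0.942. The brightest Abhd15 probe set and 17266259 gave r = 0.07 (exact permutation p = 0.866) and rho = 0.214 (exact permutation p = 0.619), and r = 0.627 without the 2 arrays farthest from the median. The 3 probe sets thus did not rise and fall together over these mice, and a single Abhd15 level per mouse cannot be read from all of them.

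**Figure D2:**
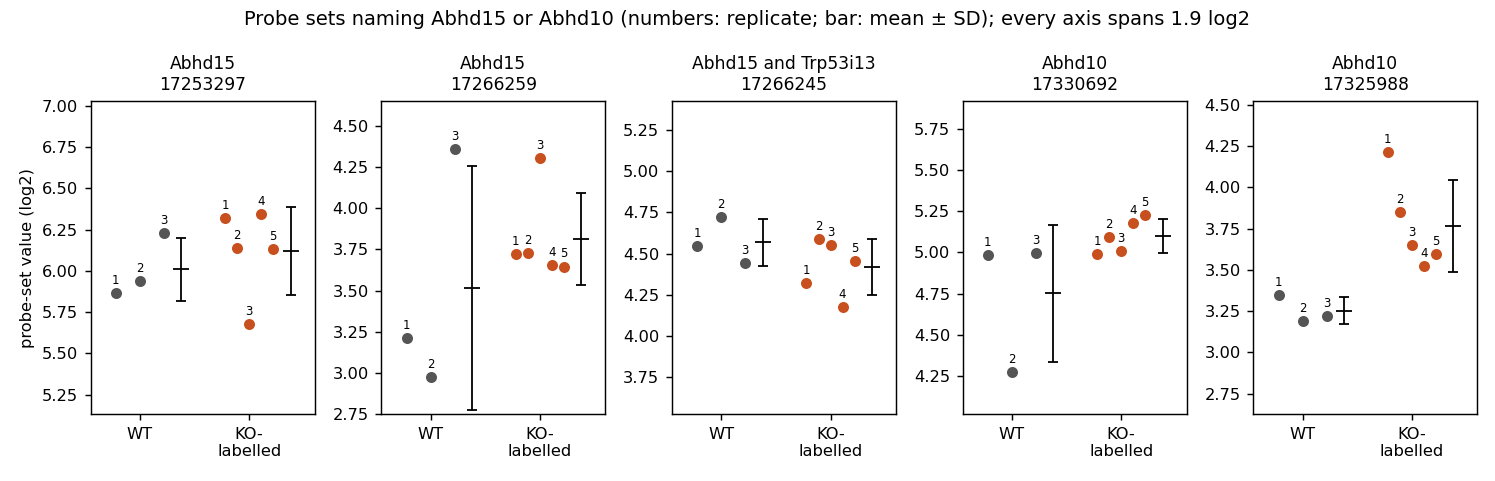
Values (log2) of the 3 probe sets naming Abhd15 and the 2 naming Abhd10, 1 point per array with its replicate number and the mean ± SD of each group. The Abhd15 probe sets overlap between the groups, and the dimmer Abhd10 probe set (17325988) is higher in each of the 5 KO-labelled arrays than in any WT array.

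Abhd6 and Abhd2, which can act on monoacylglycerols, had small differences. Abhd6, a membrane enzyme that hydrolyses 2-arachidonoylglycerol and other monoacylglycerols, read 7.17, 7.85 and 7.81 in WT and 8.01, 7.66, 7.79, 7.45 and 7.45 in the KO-labelled arrays. WT replicate 1 was the lowest array and KO-labelled replicate 1 the highest. The difference was 0.07 (−0.37 to 0.50, exact permutation p = 0.768), and it was −0.16 without WT replicate 1 and −0.02 without KO-labelled replicate 1. Abhd2, which has been reported to hydrolyse 2-arachidonoylglycerol in sperm, read 5.86, 5.45 and 5.70 in WT and 5.83, 5.83, 5.69, 5.66 and 5.77 in the KO-labelled arrays. All 5 of the latter lay inside the WT range (difference 0.08, −0.19 to 0.35, exact permutation p = 0.5). Leaving out the lowest array, WT replicate 2, the Abhd2 difference was −0.03.

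Abhd4, Abhd3 and Abhd12 act on phospholipids. Abhd4, a lipase on a route from N-acylphosphatidylethanolamines to N-acylethanolamines, read 9.17, 9.27 and 9.10 in WT and 9.48, 9.17, 9.48, 9.26 and 9.25 in the KO-labelled arrays. Its difference was 0.15 (−0.11 to 0.42, exact permutation p = 0.196), with 4 of 5 arrays above the WT mean and 2 above every WT array. Abhd3, a phospholipase that cuts phosphatidylcholines with a medium-length chain, read 4.58, 4.64 and 4.61 in WT, an SD of 0.03. In the KO-labelled arrays it read 4.75, 4.80, 4.86, 4.16 and 3.91, an SD of 0.43, with replicates 1 to 3 above every WT array and replicates 4 and 5 below. The Abhd3 difference was −0.11 (−0.62 to 0.40, exact permutation p = 0.696), and it was 0.03 without KO-labelled replicate 5.

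Abhd12, the main lipase of lysophosphatidylserine in brain, whose loss in humans causes a disease of nerve, eye and ear, read 7.03, 7.11 and 6.90 in WT. It read 6.91, 6.92, 6.66, 6.47 and 6.70 in the KO-labelled arrays. All 5 of these lay below the WT mean and 3 below every WT array, while replicates 1 and 2 lay just above WT replicate 3. The difference was −0.28 (−0.58 to 0.02, exact permutation p = 0.0714, limma adjusted p = 0.9997). Abhd16a, which makes lysophosphatidylserine from phosphatidylserine and is no member of the 10, differed by −0.12 (−0.41 to 0.17).

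Abhd10 and Abhd11 encode mitochondrial proteins. Abhd10, which removes palmitate from proteins, read 4.99, 4.27 and 5.00 in WT (4.75 ± 0.41, SD, n = 3). It read 4.99, 5.09, 5.01, 5.18 and 5.23 in the KO-labelled arrays (5.10 ± 0.10, SD, n = 5). All 5 lay above the WT mean, but WT replicates 1 and 3 were within 0.01 of the lowest of them. The difference was 0.35 (−0.05 to 0.74, exact permutation p = 0.0357, limma adjusted p = 0.9997). It shrank to 0.11 without WT replicate 2.

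A dimmer Abhd10 probe set (17325988) was not the one taken by the rule, and it is given here after its values were seen. It read 3.35, 3.19 and 3.22 in WT and 4.21, 3.85, 3.65, 3.52 and 3.60 in the KO-labelled arrays, without overlap (difference 0.51, exact permutation p = 0.0357). It lies not far above 2.88, the 95th percentile of olfactory and vomeronasal receptor probe sets, which is used here as the limit of dim values. Abhd10 lies on the minus strand, and the 10 nearest named neighbours of this probe set are all plus-strand genes, whereas those of the brighter one (17330692) are all minus-strand genes. Across the 8 mice the 2 probe sets gave Pearson r = 0.419 (exact permutation p = 0.279) and Spearman rho = 0.405 (exact permutation p = 0.327), and r = 0.405 without the 2 arrays farthest from the median.

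Abhd11, a mitochondrial hydrolase that keeps the lipoylated 2-oxoglutarate dehydrogenase complex working, read 6.80, 6.86 and 6.67 in WT and 7.06, 6.86, 6.67, 6.66 and 6.49 in the KO-labelled arrays. The KO-labelled arrays reached both above and below the WT range (difference −0.03, −0.35 to 0.29, exact permutation p = 0.893). The difference was 0.01 without WT replicate 2 and 0.03 without KO-labelled replicate 5.

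The functions of Abhd8 and Abhd13 are less well described. Abhd8 read 3.98, 3.38 and 3.81 in WT and 3.35, 3.50, 3.20, 2.93 and 3.61 in the KO-labelled arrays. All 5 of the latter lay below the WT mean and 3 below every WT array, and KO-labelled replicate 4 was near the limit of 2.88. Its difference, the most negative of the 10, was −0.41 (−0.83 to 0.02, exact permutation p = 0.107, limma adjusted p = 0.9997). It was −0.58 (−1.01 to −0.14, limma adjusted p = 0.9999) without WT replicate 2 and −0.28 (−0.75 to 0.20) without WT replicate 1. Abhd13 read 6.10, 5.31 and 5.99 in WT (5.80 ± 0.43, SD, n = 3). In the KO-labelled arrays it read 6.14, 6.17, 6.17, 6.10 and 6.03 (6.13 ± 0.06, SD, n = 5), all above the WT mean. As in Abhd10, WT replicate 2 stood far below the other 7 arrays. The Abhd13 difference was 0.33 (−0.06 to 0.72, exact permutation p = 0.0357, limma adjusted p = 0.9997), and 0.08 once that array was left out.

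**Figure D3:**
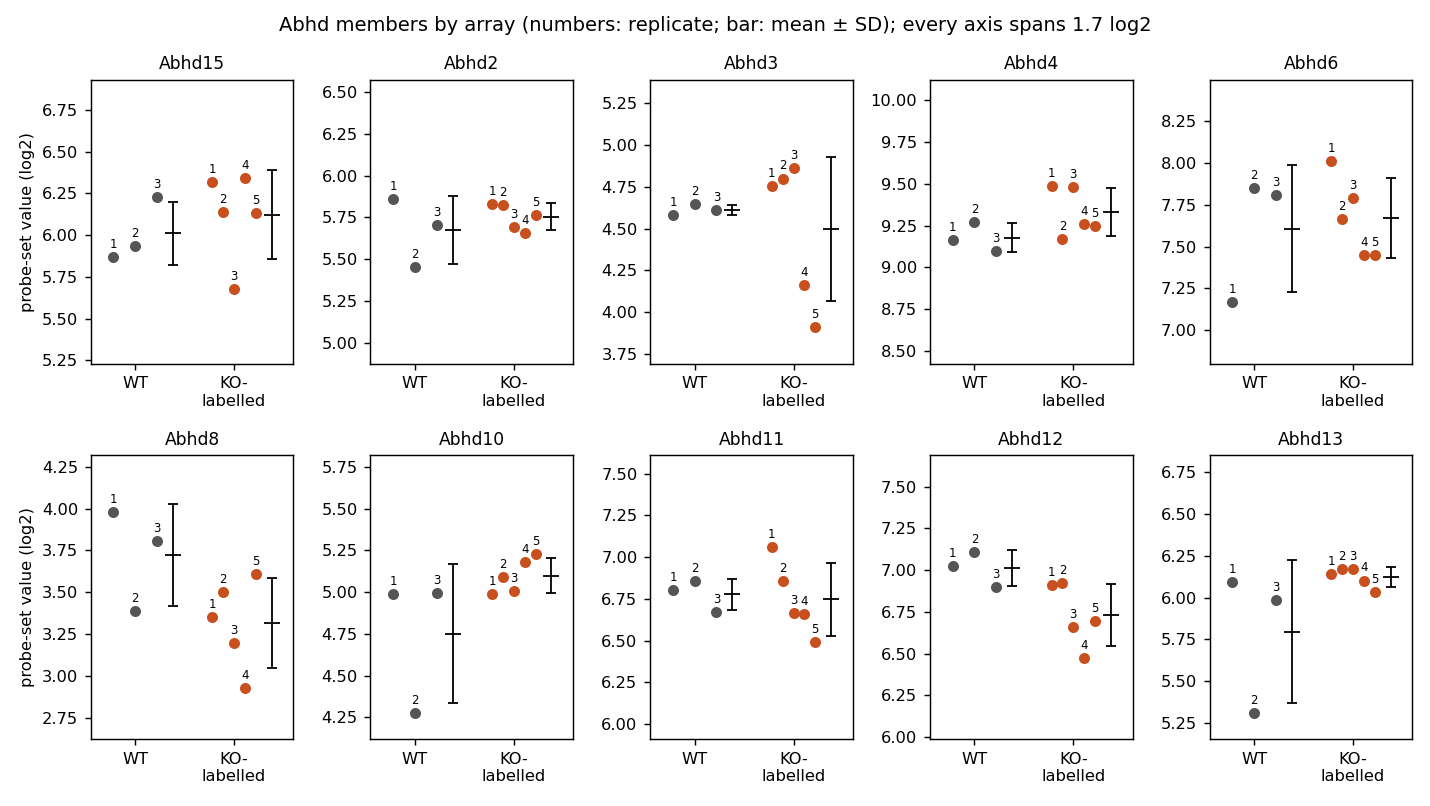
Values (log2) of the 10 members, 1 point per array with its replicate number, and the mean ± SD of each group; every vertical axis spans the same range, so distances can be compared between panels. WT replicate 2 stands apart in Abhd10 (4.27) and Abhd13 (5.31), and the KO-labelled arrays split in Abhd3, from 3.91 to 4.86.

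The members varied unevenly between mice of one group. The residual SD within groups was 0.354 log2 in Abhd3, 0.295 in Abhd6 and 0.281 in Abhd8, and 0.134 in Abhd2 and 0.128 in Abhd4. Dim probe sets spread more on this array, so each member was also set beside the tested genes within 0.5 log2 of its own mean. There Abhd6 lay at percentile 90.6 of 1580 genes, with 0.295 against their median of 0.15, and Abhd2 at percentile 12.3 of 2227 genes. The other 8 members lay between percentile 39.5, in Abhd8, and 71, in Abhd3.

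**Figure D4:**
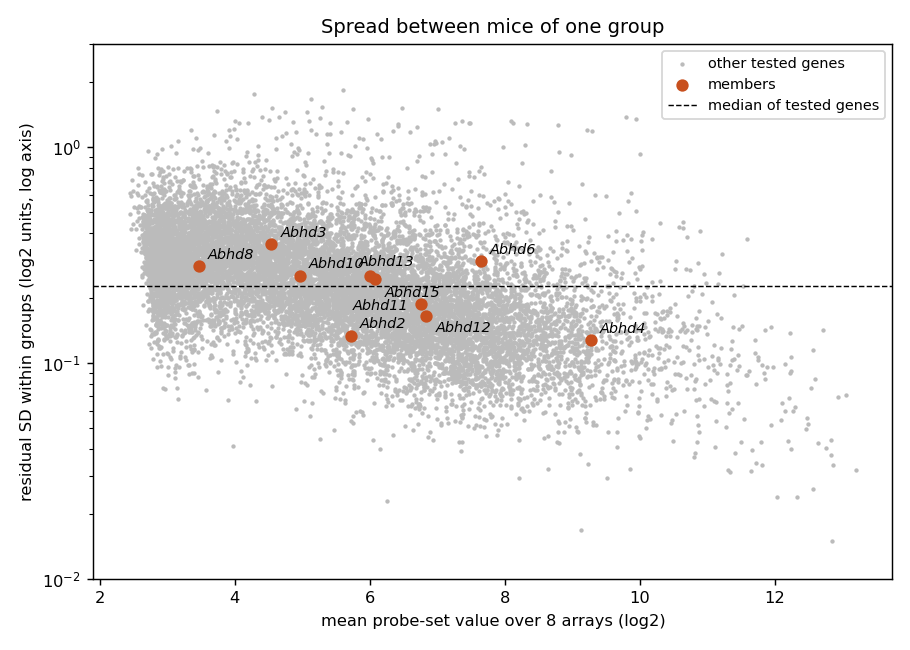
Residual SD within groups (log2 units, log axis) against the mean value over the 8 arrays (log2) for every tested gene in grey and the 10 members in orange, with the median over tested genes dashed. Abhd6, at 0.295, is high for its level and Abhd2, at 0.134, is low for its level.

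By array, WT replicate 2 held the lowest value of 3 members, Abhd2, Abhd10 and Abhd13, and KO-labelled replicate 1 held the highest value of 3, Abhd4, Abhd6 and Abhd11. KO-labelled replicate 2 held neither the lowest nor the highest value of any member. Relative to its mean over the 8 arrays, WT replicate 2 was lower by the same amount in Abhd10 (−0.69) and Abhd13 (−0.69), and by less in Abhd2 (−0.27). In the same array Abhd12 and Abhd6 were above their means (0.27 and 0.20), so it was not low in all members.

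**Figure D5:**
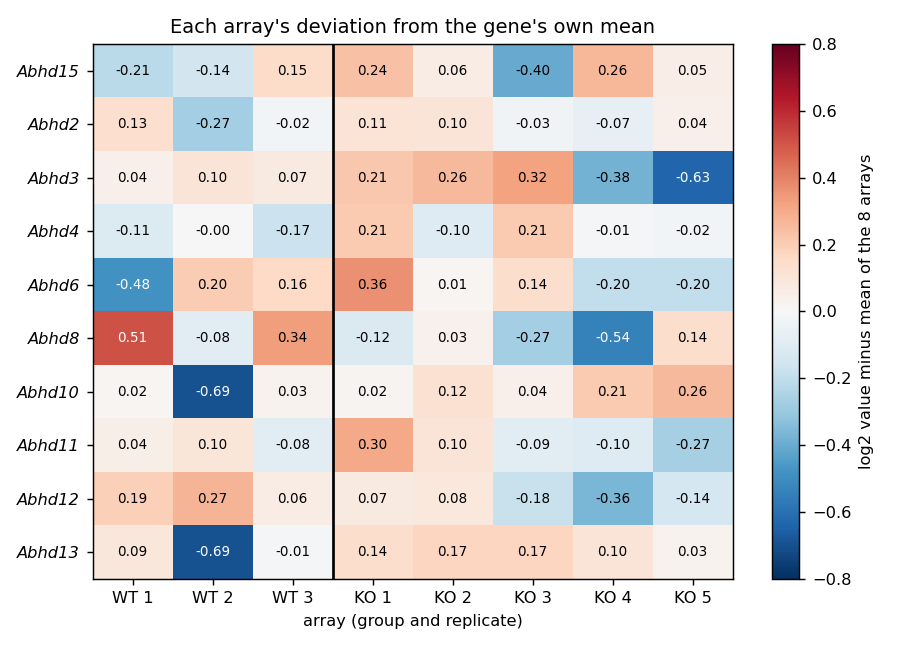
Each array's log2 value minus the gene's mean over the 8 arrays, for the 10 members in rows and the arrays in columns, with a line between the WT arrays and the KO-labelled arrays. The deepest cells are Abhd10 and Abhd13 in WT replicate 2 (both −0.69) and Abhd3 in KO-labelled replicate 5 (−0.63).

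Of the 45 pairs of members, 0 were correlated across the 8 mice after adjustment (smallest adjusted exact permutation p = 0.717). Pearson r ran from −0.671, between Abhd10 and Abhd12, to 0.911, between Abhd10 and Abhd13, and it was above 0 in 24 pairs. The Abhd10 and Abhd13 pair had an exact permutation p of 0.0835 and a Spearman rho of 0.333 (exact permutation p = 0.428). Without the 2 arrays farthest from the Abhd10 median, WT replicate 2 and KO-labelled replicate 5, r was 0.165. WT replicate 2 deviated from the mean by −0.695 in both genes. KO-labelled replicate 5 deviated by 0.258 in Abhd10 and 0.0302 in Abhd13. The 2 arrays were left out together, so the part of each was not tested. Abhd2 and Abhd13 gave r = 0.839 (exact permutation p = 0.0368, adjusted 0.717), rho = 0.286 (exact permutation p = 0.501) and r = 0.306 without the 2 farthest arrays. For Abhd10 and Abhd12 rho was −0.762 (exact permutation p = 0.0368, adjusted 0.806), r had an exact permutation p of 0.0688, and r without the 2 farthest arrays was −0.704.

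The genes that tracked a member most closely are given as a description, since each was picked from all tested genes over only 8 arrays. Closest to the brightest Abhd15 probe set were Mb21d2 (Pearson r = 0.95), the chloride and proton exchanger gene Clcn6 (0.924) and Pik3cd, a catalytic subunit of phosphoinositide 3-kinase (0.924). Their Spearman rho values were 0.952, 0.905 and 0.81. For Abhd8 they were the matrix metalloproteinase gene Mmp3 (r = 0.971), the receptor phosphatase gene Ptpru (0.966) and Tmem17 (0.963), a gene of the ciliary transition zone. For Abhd12 they were Smoc1, a secreted calcium-binding protein (r = 0.987), Meaf6, a subunit of histone acetyltransferase complexes (0.965), and Wdr93 (0.955). Smoc1 read 7.49, 7.76 and 7.33 in WT and 7.32, 7.37, 6.86, 6.70 and 6.95 in the KO-labelled arrays, in nearly the same order over the mice as Abhd12 (rho = 0.976).

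The other Abhd genes did not pass the test either. Of 11 listed, 10 had a probe set of their own and 9 were tested: 4 were higher and 5 lower, 0 passed the adjusted threshold, and the median difference was −0.03 log2 against 0.01 over all tested genes. Abhd17a, one of a trio of enzymes that remove palmitate from proteins such as N-Ras, read 5.08, 5.73 and 5.25 in WT and 5.70, 5.52, 5.92, 5.86 and 5.53 in the KO-labelled arrays. Its difference was 0.35 (−0.03 to 0.73, exact permutation p = 0.107), while those of its relatives Abhd17b (−0.06, −0.32 to 0.21) and Abhd17c (0.07, −0.16 to 0.29) were smaller. Abhd17c had a residual SD of 0.0725, at percentile 2.36 of all tested genes.

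Abhd5, the co-activator of adipose triglyceride lipase also called CGI-58, differed by −0.10 (−0.41 to 0.22). Its top values were those of WT replicate 2 (9.42) and KO-labelled replicate 1 (9.24), and between 8.92 and 9.03 in the other 6 arrays. Abhd14a differed by 0.08 (−0.46 to 0.61), Abhd14b by −0.03 (−0.41 to 0.36) and Abhd18 by −0.22 (−0.82 to 0.38). Abhd16b read 2.93 in WT and 2.95 in the KO-labelled arrays, at the limit of 2.88, and Abhd12b was above that limit in 1 of 8 arrays and was not tested. Abhd1 is named only by a probe set shared with Preb, so no value is given for it.

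Genes that work beside the members gave similar counts. In the list for endocannabinoids and monoacylglycerols 7 of 13 tested genes were higher and 6 lower (median 0.00), and 0 passed the adjusted threshold. Napepld, the phospholipase that makes N-acylethanolamines in one step, read 7.29, 7.23 and 7.37 in WT and 7.10, 7.30, 6.71, 6.75 and 6.58 in the KO-labelled arrays. Replicate 2 alone of the latter reached the WT values (difference −0.41, −0.79 to −0.02, exact permutation p = 0.0714, limma adjusted p = 0.9997). Plcb4, a phospholipase C, differed by 0.26 (−0.00 to 0.53) and Daglb, a diacylglycerol lipase, by −0.27 (−0.69 to 0.15).

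In the list of depalmitoylating enzymes 6 of 10 genes were higher (median 0.05). Its members of lowest p were Abhd17a, Lypla1 (acyl protein thioesterase 1), at 0.12 (−0.10 to 0.33) with all 5 KO-labelled arrays above every WT array, and Notum, at 0.24 (−0.27 to 0.75), whose WT mean of 2.67 lay below the limit of 2.88. In the list of phospholipid lipases 6 of 13 were higher (median −0.01), with Pla2g4a, a cytosolic phospholipase A2, at 0.27 (−0.18 to 0.72), Pnpla7, a lysophospholipase, at 0.31 (−0.22 to 0.84) and the carboxylesterase gene Ces1f at −0.29 (−0.85 to 0.27). In the list of PDE3B and insulin signalling 8 of 14 were higher (median 0.01). There Akt2, the insulin-responsive kinase of adipocytes, differed by −0.26 (−0.54 to 0.02), Pik3r6, a regulatory subunit of phosphoinositide 3-kinase gamma, by 0.31 (−0.12 to 0.74) and Irs2 by −0.46 (−1.16 to 0.24). In these 3 lists, too, 0 genes passed the adjusted threshold with limma (the lists share Abhd17a to Abhd17c with the one above). At an unadjusted limma p of 0.05 the count was 0 in these 3 lists and 1 of 13, Napepld, in the endocannabinoid list. Of all tested genes 4.01% lay below it.

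Brown adipocyte markers were present in every array but not evenly. Of 11 listed, 9 had a probe set and were tested, 5 higher and 4 lower in the KO-labelled arrays (median 0.02). Ucp1 read between 12.51 and 12.89 and Cidea between 12.02 and 12.19 in the 8 arrays. KO-labelled replicate 3, the array lowest in the brightest Abhd15 probe set, was the lowest array in 5 of the 9. These were Dio2, the deiodinase that activates thyroid hormone (4.47 there and 5.57 to 8.32 elsewhere), the fatty acid elongase gene Elovl3 (9.44 and 10.12 to 10.67), the coactivator gene Ppargc1a, Cox7a1 and Cox8b. The last of these were only a little lower there than in the next array. Ppargc1a read 7.94 there, just below WT replicate 1, and up to 9.09 elsewhere. Cox7a1 read 10.89 there and 10.98 to 11.16 elsewhere, and Cox8b 11.21 and 11.26 to 11.36. The part of these low marker values in the Abhd15 values was not tested. General adipocyte markers were lower in 5 of 7 (median −0.04). All 15 skeletal muscle markers were lower in the KO-labelled arrays (median difference −0.53), but their mean ranged from 5.84 to 8.52 within WT and from 5.12 to 7.84 within the others. Macrophage markers were lower in 10 of 12 (median −0.19), with means of 5.21 to 5.95 in WT and 4.86 to 5.69 in the others. Endothelial markers were higher in 9 of 9 (median 0.18), with means of 6.80 to 7.12 and 6.89 to 7.34. Smooth muscle and pericyte markers were higher in 6 of 8 (median 0.16), with means of 6.08 to 6.24 in WT and 6.16 to 6.45 in the others. Fibroblast markers were lower in 7 of 8 (median −0.13), with means of 6.96 to 7.62 and 6.73 to 7.53. The lymphocyte and Schwann cell markers Cd3d, Cd4, Gzma, Ms4a1, Cd79b, Pax5 and Sox10 were not above the dim limit in 3 arrays. Other markers of these cells were tested: 4 of T and NK cells, 1 of B cells and 3 of Schwann cells. Of these, Cd3e, Mbp, S100b and Cdh19 were above the limit in all 8 arrays, Cd79a in 6, Nkg7 in 5, and Cd3g and Cd8a in 3. In bulk tissue fewer cells of a type and less RNA per cell cannot be told apart. With the muscle mean as a covariate the difference of Abhd3 went from −0.11 to −0.20 and that of Abhd6 from 0.07 to −0.01. The other 8 members moved by less than 1.5 times, with Abhd15 at 0.10, Abhd8 at −0.44, Abhd10 at 0.35, Abhd12 at −0.31 and Abhd13 at 0.32. The part of the levels of the other cell types in the members' values was not tested.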

How the data were processed

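The deposited values are log2 intensities, 1 per probe set and array, made by the authors with RMA and the oligo package per the submitters' processing notes, with no version given. RMA corrects background, quantile-normalizes and summarises probes, so a shift common to most genes would be hidden. The design text in the labels also names Expression Console, so the program is not settled. Each array took 200 ng of total RNA. Medians of the arrays ran from 3.00 to 3.04, and arrays correlated at 0.964 to 0.975. Arrays give no read depth, and their number limits the precision.

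Of 41345 probe sets, 23521 had 1 gene symbol in the platform annotation, 1814 several and 16010 none. By Entrez identifier 23328 matched the RefSeq table of GRCm38.p6, and 0 symbols changed. The labels name no genome build, so coordinates appear only for RefSeq promoter windows. The first listed window of a gene was searched on both strands. Abhd12 had no window in the table, and that of Abhd3 was not used here. The dim limit of 2.88 log2 came from 1405 receptor probe sets. A gene was tested if 3 or more arrays exceeded it, using limma 3.58.1 (R 4.3.3, lmFit with a group term, then eBayes), with Benjamini-Hochberg adjustment at 0.05. The fit was tested on simulated data. Exact two-sided permutation tests over the 56 splits of 8 arrays allow no p below 0.0179. Pairs of measures were compared with exact permutation tests in Python 3.11.15.

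The members and gene lists were chosen with earlier results of these data known. The text names all 10 members, every other Abhd gene with its own probe set, the 3 genes of lowest p in each other list, and the 3 genes closest to Abhd15 and to the 2 other members of lowest p. Predicted genes, Riken clones and small RNAs were left out of the last. Genes named outside it are marked, or are markers. The alternatives were the replicate number as a block, quantile normalization again, median centring, no dim filter or a stricter one, trend with robust fitting, array weights, the mean of a gene's probe sets, the muscle mean as a covariate and leaving out each array.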

Additional observations from a re-analysis of the deposited data

Results flagged for a closer look

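Among the 20 Abhd genes with a probe set of their own, the group labelled Abhd15 KO of 1 gene, Abhd12b, held a value far from the others. Its highest array, replicate 4 at 3.03 log2, was separated from the next by 0.726 of the group's range, above Dixon's 95% critical value of 0.71 for 5 samples. The other 4 arrays read 2.44 to 2.60, below the dim limit of 2.88. Chance flags about 1 in 20 groups.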

How the results depend on the processing

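The count of members past the adjusted threshold was 0 under each of the 9 alternatives and each of the 8 fits without an array, as was the count over all genes. At an unadjusted p of 0.05 by limma, 0 to 2 of the members passed over these fits. The share of all tested genes below it was taken only in the main fit (4.01%), where 0 members passed. The brightest Abhd15 probe set differed by 0.04 to 0.22 when 1 array was left out and by 0.04 to 0.20 under the other alternatives. The 0.20 came from the mean of the 2 probe sets that name Abhd15 alone. The dimmer of these, 17266259, has 9 minus-strand genes among its 10 nearest named neighbours, although Abhd15 lies on the plus strand. Of 169 refitted member differences, 160 kept their direction. The replicate block turned Abhd3 to 0.194 and Abhd11 to 0.085, and moved Abhd6 to 0.214, Abhd12 to −0.182 and Abhd15 to 0.035 (0.0672 with array weights). The muscle covariate turned Abhd6 to −0.0111 and moved Abhd3 to −0.198. When 1 array was left out, Abhd2 ranged from −0.0261 (without WT replicate 2) to 0.175, Abhd3 from −0.205 to 0.0339 (without KO-labelled replicate 5), Abhd6 from −0.156 (without WT replicate 1) to 0.186 and Abhd11 from −0.109 to 0.0335 (without KO-labelled replicate 5), crossing 0. Abhd10 ranged from 0.11 to 0.47, Abhd13 from 0.08 to 0.48, Abhd8 from −0.58 to −0.28 and Abhd12 from −0.34 to −0.22. The mean of both Abhd10 probe sets differed by 0.43 (0.13 to 0.72, limma unadjusted p = 0.00906, adjusted p = 0.9997). That mean includes the dimmer probe set 17325988, whose 10 nearest named neighbours are all plus-strand genes although Abhd10 lies on the minus strand. Abhd8 was not tested at the stricter dim limit of 3.79. Same-numbered arrays did not deviate together (r = −0.258, −0.098 and 0.019 across tested genes), and the main fit used no pairing. Whether same-numbered mice were paired is not stated in the labels, and these values cannot settle it. KO-labelled replicates 4 and 5 have no partner in the block. Signal near the dim limit restricts Abhd8, Abhd16b and the dimmer Abhd10 probe set.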
